A study of Homo sapiens with 20 samples.

Results

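The 10 genes described here are parts of the Wnt/β-catenin pathway that dampen it, read it out or receive it: the E3 ubiquitin ligases RNF43 and ZNRF3, the R-spondin receptors LGR4 and LGR5, the Wnt receptor FZD8, the secreted antagonist DKK1, the cytoplasmic inhibitors AXIN2 and NKD1, and the transcription factors TCF7L2 and LEF1. They were picked by symbol from the 58825 genes of the expression table, and each symbol had a single row. The 10 genes and the lists of other Wnt pathway genes below were chosen with earlier results of these data known. Their p-values were not adjusted for this choice. RNF43 had drawn attention by its level at 2 hours against the controls. Every comparison that uses its values at 2 hours is therefore given as a description, without a test. Its comparisons with control at 6 hours were tested, but they reuse the controls that entered this choice of gene. The RNA came from A549, a human lung adenocarcinoma cell line, in 20 libraries of 5 groups with 4 libraries each: TGF-β at 10 ng/ml for 6 hours, TGF-β at 10 ng/ml for 2 hours, extracellular ATP (eATP) at 0.5 mM for 6 hours, eATP at 0.5 mM for 2 hours, and untreated control. All groups shared the cell line and a serum-containing medium. TGF-β is a cytokine and a known inducer of epithelial mesenchymal transition (EMT), and eATP was studied as another inducer of it. The controls carry no time label, so an effect of time in culture and an effect of an inducer cannot be told apart. The sources do not say whether the libraries of a group were grown as separate cultures, and the p-values therefore cover the spread among these libraries, which may be technical.

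In the Wnt/β-catenin pathway, a Wnt ligand binds a Frizzled receptor and an LRP co-receptor, Dishevelled is recruited, and the destruction complex built on axin stops degrading β-catenin, which then works with TCF/LEF factors in the nucleus. RNF43 and ZNRF3 are membrane ligases that mark Frizzled receptors for removal from the cell surface. R-spondins, bound to LGR receptors, clear these ligases from the membrane. RNF43, ZNRF3, AXIN2, NKD1, DKK1 and LEF1 are known in several tissues as genes that β-catenin itself switches on, which closes a negative feedback loop, except LEF1, which feeds forward.

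The libraries held 56187614 to 75050437 counts each. The levels below are FPKM, a level corrected for transcript length and for the mapped fragments of the library. All 10 epithelial markers of A549 were detected, with summed levels of 7383 to 9074 FPKM over the groups. The enzyme genes ALDH1A1 (3365 to 4018 FPKM) and AKR1B10 (1856 to 3085 FPKM) were the highest of them and made up most of the sum. EPCAM was at 4.48 to 6.99 FPKM and CDH1 at 2.14 to 15.25 FPKM over all libraries, so the sum does not show their changes. The 8 fibroblast markers summed to 15.7 to 18.7 FPKM with TGF-β at 6 hours, 7.10 to 7.89 FPKM with TGF-β at 2 hours, 1.31 to 2.03 FPKM with eATP at 6 hours, 2.26 to 2.84 FPKM with eATP at 2 hours and 1.82 to 2.37 FPKM in control. COL1A1, one of them, reached 17.8 FPKM in a library with TGF-β. THY1 was at 0.338 to 0.944 FPKM and LUM at 0.149 to 0.603 FPKM over all libraries. PDGFRA and COL3A1 reached at most 0.145 and 0.131 FPKM, and COL1A2, DCN and PDGFRB stayed at or below 0.0185 FPKM. The part of this list in the results with TGF-β was not tested. The 8 immune markers summed to 3.88 to 10.2 FPKM, with CD3E at 0 counts, and the 6 endothelial markers to 0.0669 to 0.543 FPKM. Replicate 1 of TGF-β at 2 hours stood somewhat apart, as its genes deviated from the group means with an SD of 0.738 on the log2 scale, against 0.521 to 0.611 in the other libraries.

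RNF43 was low with both inducers at 2 hours, was still low with TGF-β at 6 hours, and was back within the range of the controls with eATP at 6 hours. RNF43 (ENSG00000108375) lies on the minus strand of chromosome 17, at chr17:58352500-58417595 (GRCh38). Its level was 1.28, 1.22, 0.963 and 1.41 FPKM with TGF-β at 6 hours and 0.767, 1.31, 1.04 and 0.925 FPKM with TGF-β at 2 hours. With eATP it was 7.06, 6.98, 6.13 and 6.58 FPKM at 6 hours and 1.04, 0.761, 0.727 and 0.674 FPKM at 2 hours, against 8.73, 7.88, 5.55 and 9.57 FPKM in control. All 12 libraries of the 3 low groups lay below all 8 libraries of eATP at 6 hours and control. The order of the means was control, eATP at 6 hours, TGF-β at 6 hours, TGF-β at 2 hours and eATP at 2 hours, and the only gap between neighbours without overlap was the one between eATP at 6 hours and TGF-β at 6 hours.

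At 2 hours the RNF43 mean was 12.7% of the control mean with TGF-β, a log2(FC) of -2.94 (SE 0.183), and 10.1% with eATP, a log2(FC) of -3.28 (SE 0.185). Between 2 and 6 hours its log2(FC) was 0.32 (SE 0.171) with TGF-β and 3.06 (SE 0.184) with eATP. At 6 hours RNF43 was downregulated by TGF-β, to 1.22 ± 0.188 FPKM, against 7.93 ± 1.73 FPKM in control (SD, n = 4 each), with a log2(FC) of -2.62 (SE 0.180, edgeR adjusted p = 4.65e-09). With eATP at 6 hours it averaged 6.69 ± 0.430 FPKM (SD, n = 4), and the log2(FC) against control was -0.22 (95% interval -0.578 to 0.133, edgeR adjusted p = 0.688). The control libraries also entered the choice of RNF43, so the p-values against control at 6 hours are not independent of that choice. In bulk RNA, fewer cells with the transcript and less of it in each cell cannot be told apart. Set against each other at 2 hours, the inducers gave overlapping RNF43 levels, with a log2(FC) of TGF-β over eATP of 0.33 (SE 0.172). At 6 hours RNF43 was lower with TGF-β than with eATP by a log2(FC) of -2.40 (SE 0.179, edgeR adjusted p = 1.23e-08).

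RNF43 shares its strand and part of its span with the annotated genes AC004687.2 and SUPT4H1, so reads could be split among these genes. SUPT4H1 took 4336 to 7621 counts per library, against 446 to 5780 for RNF43. AC004687.2 took 7 to 604 counts per library, and the highest of these was control replicate 3, the control with the lowest RNF43 level. The counts of RNF43 and AC004687.2 together, not scaled for depth, were 520 to 1110 with TGF-β at 6 hours, 687 to 881 with TGF-β at 2 hours, 4079 to 4830 with eATP at 6 hours, 494 to 709 with eATP at 2 hours and 4322 to 5955 in control. The 3 low groups thus stayed below the other 2 when RNF43 and AC004687.2 were pooled. SUPT4H1 was not pooled, and a sharing of reads with it was not tested.

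ZNRF3, the closest relative of RNF43 and the partner ligase in Frizzled removal, was low in the same 3 groups, with smaller fold changes. ZNRF3 (ENSG00000183579, chr22:28883592-29057487, plus strand) was at 2.56, 2.38, 1.61 and 2.68 FPKM with TGF-β at 6 hours and at 1.58, 3.10, 2.94 and 2.70 FPKM with TGF-β at 2 hours. It was at 4.54, 4.60, 3.86 and 4.30 FPKM with eATP at 6 hours and at 2.82, 2.33, 2.63 and 2.76 FPKM with eATP at 2 hours, against 5.02, 5.11, 4.15 and 4.45 FPKM in control. Every library of the 3 low groups was below every library of eATP at 6 hours and control, as for RNF43. ZNRF3 fell with TGF-β at 6 hours (log2(FC) -0.94, SE 0.166, edgeR adjusted p = 0.000414) and at 2 hours (log2(FC) -0.84, SE 0.166, edgeR adjusted p = 0.00176), and with eATP at 2 hours (log2(FC) -0.80, SE 0.166, edgeR adjusted p = 0.00346). With eATP at 6 hours its log2(FC) was -0.093 (95% interval -0.439 to 0.254, edgeR adjusted p = 0.929), and it was higher than with eATP at 2 hours by 0.71 (SE 0.166, edgeR adjusted p = 0.0070). TGF-β at 6 hours gave 53.3% of the mean of eATP at 6 hours (log2(FC) -0.85, SE 0.166, edgeR adjusted p = 0.00104), while at 2 hours the log2(FC) between the inducers was -0.036 (95% interval -0.383 to 0.311, edgeR adjusted p = 0.942).

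The levels of the ligases were also set against each other within each library. The ratio of the RNF43 to the ZNRF3 level, both in FPKM, was 0.499 to 0.597 with TGF-β at 6 hours, 0.343 to 0.487 with TGF-β at 2 hours, 1.52 to 1.59 with eATP at 6 hours, 0.244 to 0.370 with eATP at 2 hours and 1.34 to 2.15 in control. RNF43 was thus the higher of the pair, per length, in all 8 libraries of control and eATP at 6 hours, and the lower in the other 12.

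AXIN2, a scaffold of the destruction complex and a widely used readout of β-catenin activity, was low with both inducers at 2 hours. AXIN2 (ENSG00000168646, chr17:65528563-65561647, minus strand) stood at 1.25, 1.14, 1.01 and 1.58 FPKM with TGF-β at 6 hours and at 0.420, 0.873, 0.716 and 0.666 FPKM with TGF-β at 2 hours. It stood at 2.72, 2.87, 2.71 and 2.24 FPKM with eATP at 6 hours and at 0.856, 0.646, 0.630 and 0.617 FPKM with eATP at 2 hours, against 2.42, 2.39, 1.76 and 2.51 FPKM in control. The groups of 2 hours overlapped each other and no other group, TGF-β at 6 hours stood alone between them and the rest, and eATP at 6 hours overlapped control. AXIN2 fell to 29.5% of the control mean with TGF-β at 2 hours (log2(FC) -1.74, SE 0.187, edgeR adjusted p = 2.66e-06) and to 30.3% with eATP at 2 hours (log2(FC) -1.70, SE 0.186, edgeR adjusted p = 4.61e-06). The annotated gene AC004805.1 overlaps AXIN2 on the same strand. It took 0 to 64 counts per library, against 173 to 1307 for AXIN2, and a sharing of reads between them was not tested.

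By 6 hours AXIN2 had moved up with both inducers, but not to the same level. From 2 to 6 hours its log2(FC) was 0.96 with TGF-β (SE 0.184, edgeR adjusted p = 0.00162) and 1.94 with eATP (SE 0.188, edgeR adjusted p = 1.18e-06). Against control at 6 hours, AXIN2 was still downregulated by TGF-β (log2(FC) -0.79, SE 0.182, edgeR adjusted p = 0.00479), and with eATP its log2(FC) was 0.24 (95% interval -0.142 to 0.618, edgeR adjusted p = 0.687). TGF-β gave 47.3% of the AXIN2 mean of eATP at 6 hours (log2(FC) -1.02, SE 0.183, edgeR adjusted p = 0.000455), and the log2(FC) between the inducers at 2 hours was -0.045 (95% interval -0.430 to 0.340, edgeR adjusted p = 0.934). The rise of AXIN2 with TGF-β from 2 to 6 hours lost its call when only those groups were fitted (adjusted p = 0.0567).

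**Figure D1:**
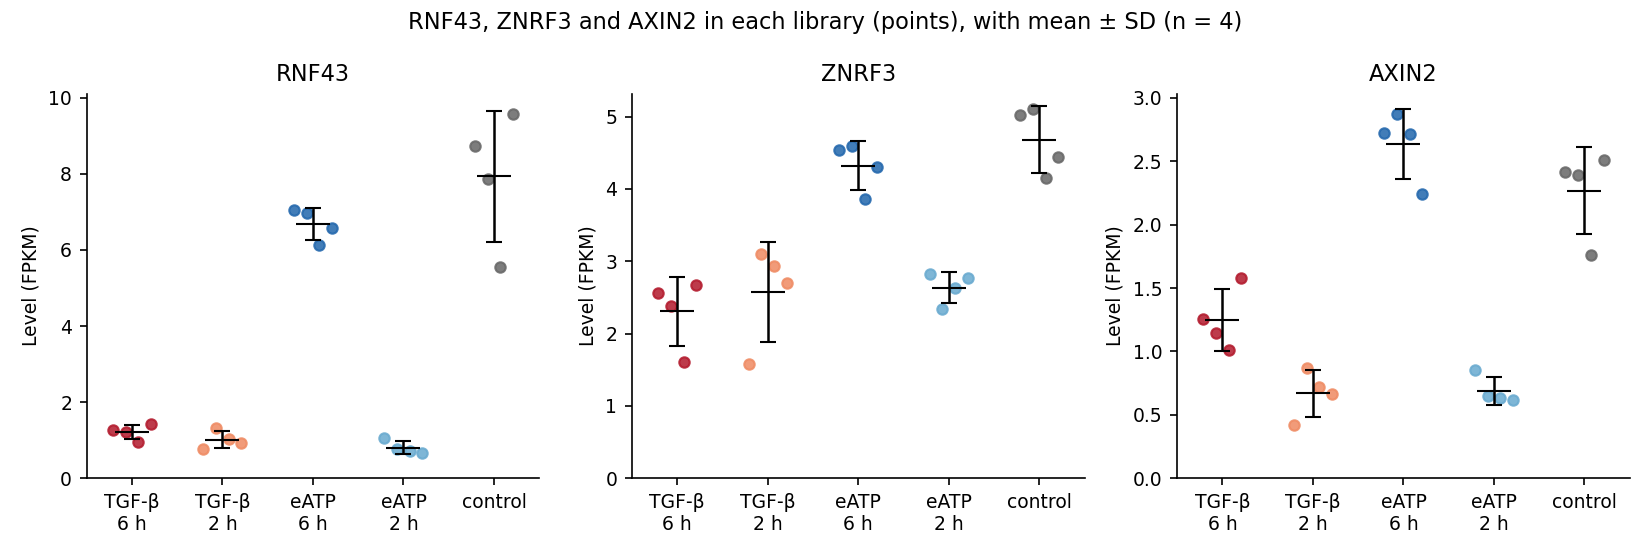
Level in FPKM (vertical axis, from 0) of RNF43, ZNRF3 and AXIN2 in each of the 20 libraries (points) by group, with the mean and SD of 4 libraries as bars. In all 3 panels the points of TGF-β at 6 hours, TGF-β at 2 hours and eATP at 2 hours lie below those of eATP at 6 hours and control.

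The difference between the time courses was taken as the log2 change from 2 to 6 hours with TGF-β minus that with eATP. It was -0.98 for AXIN2 (SE 0.258, edgeR adjusted p = 0.0287) and -0.815 for ZNRF3 (SE 0.234, edgeR adjusted p = 0.0454). AXIN2 rose from 2 to 6 hours with both inducers, and less so with TGF-β than with eATP. ZNRF3 rose with eATP (log2(FC) 0.71), while with TGF-β its log2(FC) was -0.10 (95% interval -0.45 to 0.244, edgeR adjusted p = 0.807). For RNF43 the difference between the time courses was -2.73 (SE 0.246), a description, since it rests on the values at 2 hours. The call for ZNRF3 was lost in 17 of 25 alternatives, among them the fit with no filter on low values (adjusted p = 0.0639), with adjusted p up to 0.0978, and that for AXIN2 in 9 of 25, with adjusted p up to 0.0615. Both were lost without replicate 2, 3 or 4 of eATP at 2 hours, 2 or 3 of TGF-β at 2 hours, 1 or 2 of eATP at 6 hours, or 2 of TGF-β at 6 hours, and ZNRF3 alone also without replicate 1 of eATP at 2 hours, 4 of TGF-β at 2 hours, 4 of eATP at 6 hours, or 1 or 3 of TGF-β at 6 hours. Without replicate 1 of TGF-β at 2 hours, the library that stood apart and had the lowest RNF43, ZNRF3 and AXIN2 of its group, the differences were -2.85 for RNF43, -1.16 for AXIN2 and -1.002 for ZNRF3.

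DKK1, which binds the LRP co-receptors and blocks Wnt signalling from outside the cell, was high with eATP, where the ligases were low at 2 hours. DKK1 (ENSG00000107984, chr10:52314296-52318042, plus strand) was by far the highest of the 10 genes per length. It was at 187, 178, 179 and 162 FPKM with TGF-β at 6 hours and at 177, 151, 186 and 188 FPKM with TGF-β at 2 hours. With eATP it was at 422, 414, 410 and 294 FPKM at 6 hours and at 547, 513, 678 and 705 FPKM at 2 hours, against 211, 204, 222 and 197 FPKM in control. The groups with eATP lay above all controls and did not overlap each other, and the groups with TGF-β lay below all controls.

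DKK1 rose 2.93-fold in mean with eATP at 2 hours (log2(FC) 1.58, SE 0.124, edgeR adjusted p = 7.77e-08) and 1.85-fold at 6 hours (log2(FC) 0.91, SE 0.122, edgeR adjusted p = 0.00020). Its level at 6 hours was lower than at 2 hours of eATP by a log2(FC) of -0.67 (SE 0.121, edgeR adjusted p = 0.00096). With TGF-β the log2(FC) of DKK1 against control was -0.16 at 6 hours (95% interval -0.418 to 0.0914, edgeR adjusted p = 0.445) and -0.22 at 2 hours (95% interval -0.478 to 0.031, edgeR adjusted p = 0.272), and neither was called. TGF-β over eATP gave -1.07 at 6 hours (SE 0.122, edgeR adjusted p = 3e-06) and -1.80 at 2 hours (SE 0.125, edgeR adjusted p = 7.79e-09). The time courses of DKK1 differed by 0.73 (SE 0.171, edgeR adjusted p = 0.0135), opposite in sign to RNF43, ZNRF3 and AXIN2. The DKK1 locus also carries PRKG1-AS1 on the opposite strand, with 95 to 407 counts per library, and whether the counting used strand is not stated.

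Since DKK1 and RNF43 are both known β-catenin targets and stood on opposite sides of the controls with eATP at 2 hours, the sequences just before their starts are shown, 250 bases each, from RefSeq (GRCh38.p14). Capitals mark the 7-base TCF/LEF motif, searched on both strands as CTTTG followed by AA, AT, TA or TT.
DKK1, chr10:52314031-52314280, plus strand: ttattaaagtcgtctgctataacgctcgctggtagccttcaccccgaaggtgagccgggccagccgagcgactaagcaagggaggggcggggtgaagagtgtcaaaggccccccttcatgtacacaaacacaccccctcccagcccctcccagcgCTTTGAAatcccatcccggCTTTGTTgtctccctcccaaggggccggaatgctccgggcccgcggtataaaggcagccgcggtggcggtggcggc
RNF43, chr17:58417535-58417784, minus strand: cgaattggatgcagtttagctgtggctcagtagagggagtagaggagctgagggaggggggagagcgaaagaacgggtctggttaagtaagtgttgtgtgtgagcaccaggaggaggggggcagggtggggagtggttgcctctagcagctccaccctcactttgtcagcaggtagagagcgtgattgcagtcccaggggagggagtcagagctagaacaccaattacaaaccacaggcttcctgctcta
The DKK1 window holds CTTTGAA 95 bases and CTTTGTT 76 bases before the start, and the RNF43 window shown holds none of the 4 forms. A window before another start of RNF43, chr17:58402722-58402971, is not shown and holds none either. The RefSeq table had windows for 6 of the 10 genes, 9 windows in all, and the only other match was a CTTTGTT 133 bases before an internal start of TCF7L2. Of 35116 windows of this length over all genes, 12% held at least 1 match and 1.21% held 2 or more. A match in so short a window is a description of the letters only.

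NKD1, which binds Dishevelled and restrains it, rose with TGF-β at both times and was higher with TGF-β than with eATP. NKD1 (ENSG00000140807, chr16:50548330-50649249, plus strand) was low throughout, at 0.400, 0.388, 0.339 and 0.477 FPKM with TGF-β at 6 hours and 0.248, 0.461, 0.465 and 0.440 FPKM with TGF-β at 2 hours. It was at 0.134, 0.108, 0.172 and 0.154 FPKM with eATP at 6 hours and 0.183, 0.184, 0.126 and 0.139 FPKM with eATP at 2 hours, against 0.185, 0.114, 0.110 and 0.124 FPKM in control. All 8 libraries with TGF-β were above the other 12. NKD1 was upregulated 3.01-fold in mean with TGF-β at 6 hours (log2(FC) 1.67, SE 0.219, edgeR adjusted p = 1.62e-05) and 3.03-fold at 2 hours (log2(FC) 1.62, SE 0.218, edgeR adjusted p = 3.93e-05). With eATP the log2(FC) was 0.12 at 6 hours (95% interval -0.330 to 0.573, edgeR adjusted p = 0.929) and 0.27 at 2 hours (95% interval -0.181 to 0.721, edgeR adjusted p = 0.579). The direct comparison of TGF-β with eATP gave 1.55 at 6 hours (SE 0.218, edgeR adjusted p = 3.65e-05) and 1.35 at 2 hours (SE 0.216, edgeR adjusted p = 0.000274). On the scale of log2(FPKM + 1), which shrinks the changes of low genes, the NKD1 difference with TGF-β was 0.31 at either time (limma adjusted p = 0.000159 at 6 hours and 0.000248 at 2 hours). NKD1 and AXIN2, both feedback inhibitors inside the cell, thus changed in opposite directions with TGF-β at both times.

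FZD8, a Wnt receptor of the Frizzled family, changed little but with little spread. FZD8 (ENSG00000177283, chr10:35638249-35642278, minus strand) was at 7.98, 7.77, 8.25 and 7.49 FPKM with TGF-β at 6 hours and 8.19, 9.31, 8.53 and 9.26 FPKM with TGF-β at 2 hours. It was at 6.44, 6.39, 6.63 and 6.72 FPKM with eATP at 6 hours and 6.36, 6.15, 6.57 and 6.38 FPKM with eATP at 2 hours, against 8.04, 7.86, 8.66 and 8.48 FPKM in control. All 8 libraries with eATP were below all others. FZD8 fell to 79.3% of the control mean with eATP at 6 hours (log2(FC) -0.31, SE 0.0623, edgeR adjusted p = 0.0076) and to 77.1% at 2 hours (log2(FC) -0.35, SE 0.0623, edgeR adjusted p = 0.000878). With TGF-β its log2(FC) was 0.0082 at 6 hours (95% interval -0.123 to 0.139, edgeR adjusted p = 0.960) and 0.12 at 2 hours (95% interval -0.0111 to 0.250, edgeR adjusted p = 0.249). TGF-β exceeded eATP by 0.32 at 6 hours (SE 0.0623, edgeR adjusted p = 0.000968) and by 0.47 at 2 hours (SE 0.0623, edgeR adjusted p = 2.94e-05). The call for FZD8 with eATP at 6 hours was lost when only those groups were fitted (adjusted p = 0.0529).

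TCF7L2, a DNA-binding partner of β-catenin, was higher with TGF-β at 2 hours. TCF7L2 (ENSG00000148737, chr10:112950250-113167678, plus strand) was at 2.92, 0.903, 1.11 and 1.46 FPKM with TGF-β at 6 hours and 3.16, 3.83, 3.60 and 2.21 FPKM with TGF-β at 2 hours. It was at 1.11, 0.951, 0.880 and 1.59 FPKM with eATP at 6 hours and 2.84, 2.68, 1.61 and 1.39 FPKM with eATP at 2 hours, against 1.53, 1.93, 1.03 and 1.52 FPKM in control. Only TGF-β at 2 hours cleared the controls with all 4 libraries, with a log2(FC) of 1.12 (SE 0.329, edgeR adjusted p = 0.0304). This call was lost in 6 of 17 alternatives, those without control replicate 1, 3 or 4 and those without replicate 1, 2 or 3 of TGF-β at 2 hours (adjusted p = 0.0513 to 0.0876). The log2(FC) of TCF7L2 from 2 to 6 hours was -0.94 with TGF-β (95% interval -1.63 to -0.249, edgeR adjusted p = 0.0742) and -0.91 with eATP (95% interval -1.60 to -0.216, edgeR adjusted p = 0.0835). Without replicate 1 of TGF-β at 6 hours, its highest library of that group, the change with TGF-β was -1.41 and was called (adjusted p = 0.00406), and DESeq2 called TCF7L2 with both inducers (adjusted p = 0.0264 with TGF-β and 0.0339 with eATP).

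LGR4, the R-spondin receptor detected among the 10 genes, varied widely within groups and was not called in any comparison. LGR4 (ENSG00000205213, chr11:27365961-27472775, minus strand) was at 1.95, 9.25, 7.75 and 10.3 FPKM with TGF-β at 6 hours and 10.3, 5.37, 21.7 and 3.98 FPKM with TGF-β at 2 hours. It was at 5.94, 24.2, 20.3 and 25.0 FPKM with eATP at 6 hours and 24.6, 6.55, 24.7 and 25.9 FPKM with eATP at 2 hours, against 33.5, 33.5, 5.66 and 33.8 FPKM in control. In each of eATP at 6 hours, eATP at 2 hours and control, 1 library was far below the other 3, and these were replicates 1, 2 and 3 of those groups. Such a spread was not usual, since 323 of the 6359 genes that averaged 5 FPKM or more (5.08%) had a range of more than 4-fold within some group. The log2(FC) of LGR4 with TGF-β at 6 hours was -1.78 (95% interval -3.16 to -0.402, edgeR adjusted p = 0.0765), and it was called by DESeq2 (adjusted p = 0.0384) and when control replicate 3 was left out, at -2.12 (adjusted p = 0.0281). The other 3 comparisons with control gave -1.33, -0.47 and -0.35 for TGF-β at 2 hours, eATP at 6 hours and eATP at 2 hours (edgeR adjusted p = 0.212, 0.887 and 0.867).

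LGR5 and LEF1 were at the limit of detection and were not tested, as neither reached 0.1 FPKM in any library. LGR5 (ENSG00000139292, chr12:71439770-71586310, plus strand), a stem cell marker of the intestine, had 0 to 17 counts with TGF-β at 6 hours, 4 to 21 with TGF-β at 2 hours, 0 to 4 with eATP at 6 hours, 0 to 4 with eATP at 2 hours and 0 to 8 in control. LEF1 (ENSG00000138795, chr4:108047545-108168956, minus strand) had 0 counts in all 4 libraries of TGF-β at 6 hours and of control, and 0 to 8 counts in the others. No direction was read from these counts.

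**Figure D2:**
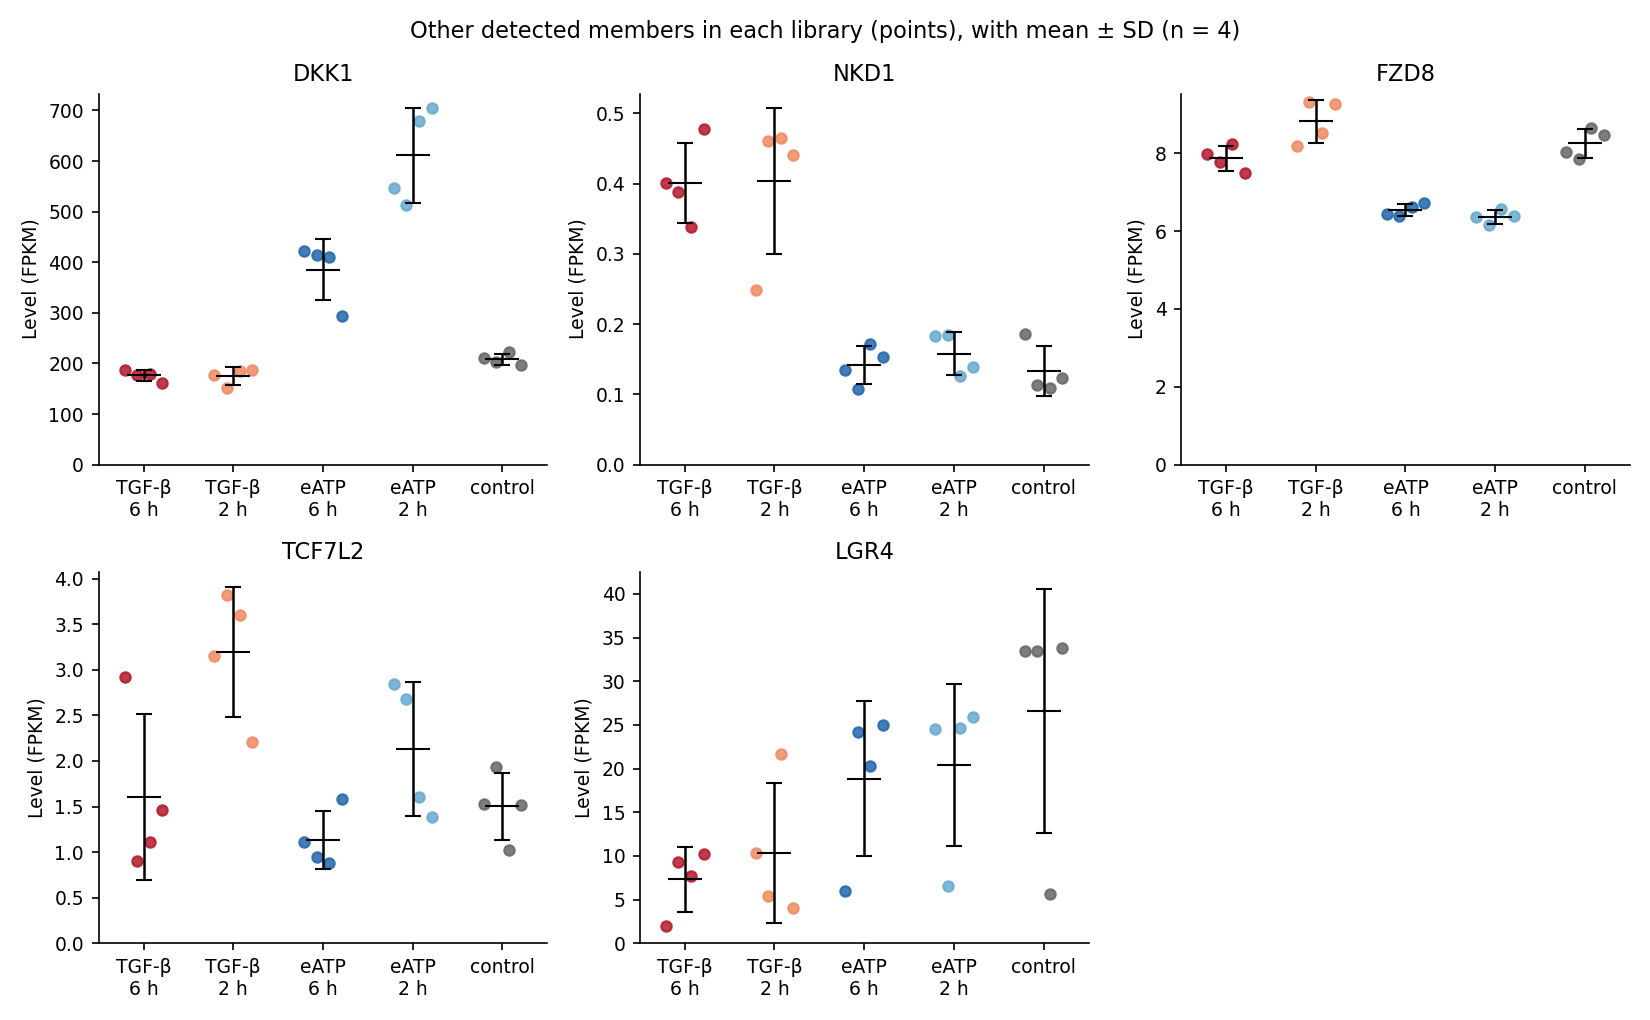
Level in FPKM (vertical axes, from 0) of DKK1, NKD1, FZD8, TCF7L2 and LGR4 in each library (points) by group, with the mean and SD of 4 libraries as bars. DKK1 is above all controls in the 8 libraries with eATP, NKD1 in the 8 libraries with TGF-β, and LGR4 shows 1 library at 5.66 FPKM among controls of 33.5 to 33.8 FPKM.

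Set beside all 20094 genes tested, the called members were as follows. The 4 comparisons with control use the same 4 control libraries and are not independent of each other. With TGF-β at 6 hours, 4 of 8 members were called, against 16.2% of all genes. NKD1 was higher (as were 8.40% of all genes), and RNF43, ZNRF3 and AXIN2 were lower (7.76%). With TGF-β at 2 hours, 4 of the 7 members other than RNF43 were called, against 12.9% of all genes. NKD1 and TCF7L2 were higher (7.25% of all genes), and ZNRF3 and AXIN2 lower (5.67%). With eATP at 6 hours, 2 of 8 were called, against 2.99% of all genes, DKK1 higher (1.71%) and FZD8 lower (1.28%). With eATP at 2 hours, 4 of the 7 other than RNF43 were called, against 8.58% of all genes. DKK1 was higher (4.79% of all genes), and ZNRF3, AXIN2 and FZD8 were lower (3.79%). The members were chosen with earlier results known, so these shares describe them and carry no test.

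Between 6 and 2 hours of TGF-β, 1 of 7 members was called, against 12.1% of all genes, a share near the background. It was AXIN2, which was higher at 6 hours (5.49% of all genes were higher and 6.58% lower). Between 6 and 2 hours of eATP, 3 of 7 were called, against 12.6% of all genes, AXIN2 and ZNRF3 higher (6.01%) and DKK1 lower (6.57%). For TGF-β against eATP at 6 hours, 6 of 8 were called, against 17.6% of all genes, NKD1 and FZD8 higher (8.97%) and RNF43, ZNRF3, AXIN2 and DKK1 lower (8.66%). At 2 hours 3 of the 7 other than RNF43 were called, against 9.08% of all genes, NKD1 and FZD8 higher (4.93%) and DKK1 lower (4.16%). For the difference between the time courses, 3 of the 7 were called, against 6.12% of all genes, DKK1 positive (3.10%) and AXIN2 and ZNRF3 negative (3.02%). The median log2(FC) over the members ranged from -0.938 to -0.0362 over these comparisons, beside -0.0165 to 0.0183 over all genes.

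**Figure D3:**
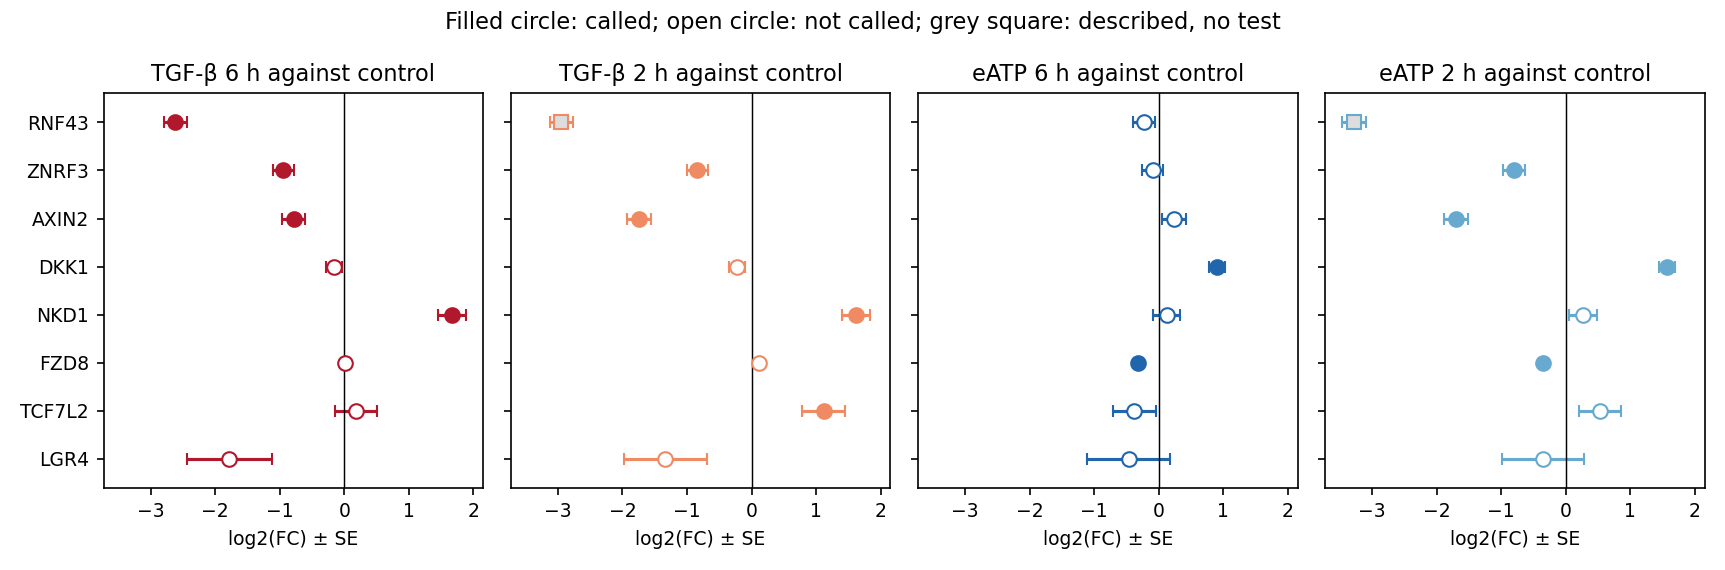
log2(FC) ± SE (horizontal axis) of the 8 tested members in the 4 comparisons with control. Filled circles were called at an edgeR adjusted p under 0.05, open circles were not, and grey squares are RNF43 at 2 hours, given without a test. RNF43, ZNRF3 and AXIN2 lie left of 0 in every panel except that of eATP at 6 hours, where they lie at -0.22, -0.093 and 0.24.

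**Figure D4:**
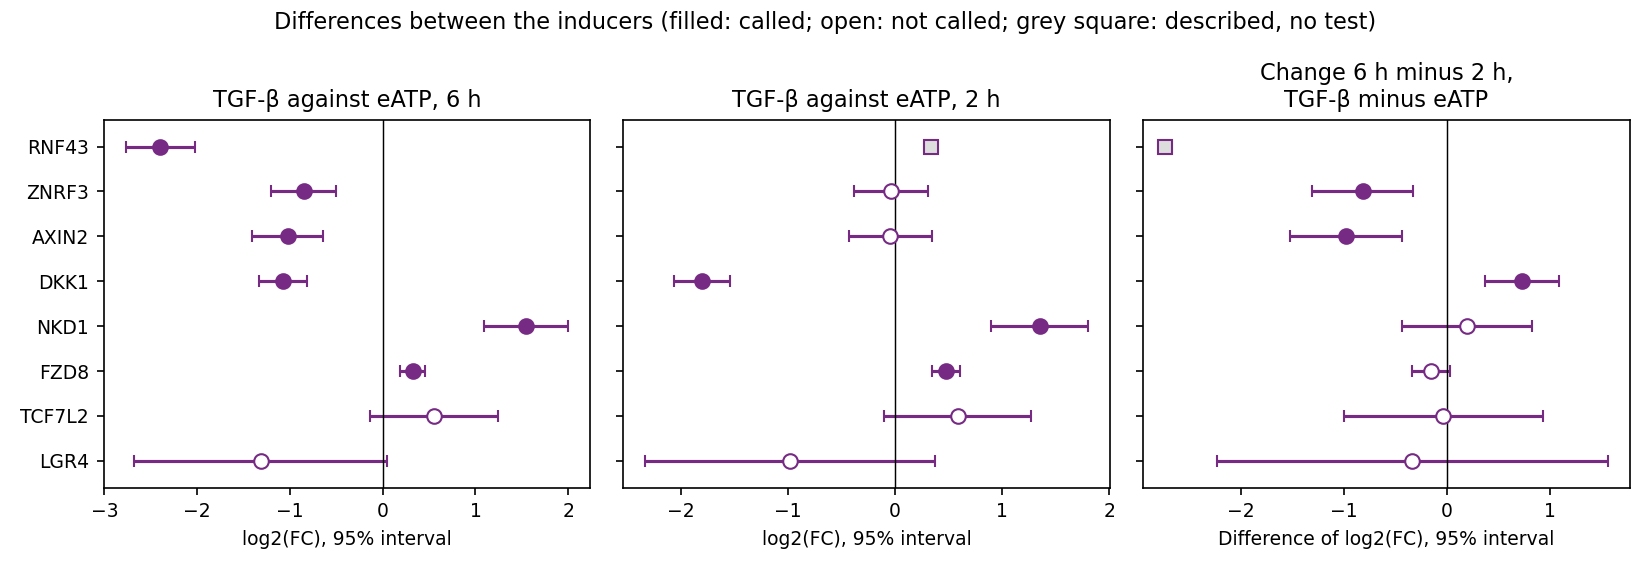
log2(FC) of TGF-β over eATP at 6 hours and at 2 hours, and the difference between the time courses, with 95% intervals (horizontal axes). Filled circles were called, open circles were not, and grey squares are RNF43 where its values at 2 hours enter, given without an interval or a test. RNF43, ZNRF3 and AXIN2 lie near 0 at 2 hours (0.33, -0.036 and -0.045) and left of 0 at 6 hours (-2.40, -0.85 and -1.02), while DKK1 lies left of 0 at both times.

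Beyond the 10 genes, 88 other Wnt pathway genes were listed by role, and 69 of them were tested. With TGF-β at 6 hours 15 were higher and 8 lower (33.3% called, against 16.2% of all genes), with TGF-β at 2 hours 16 were higher and 8 lower (34.8%, against 12.9%), with eATP at 6 hours 6 were higher and 1 lower (10.1%, against 2.99%), and with eATP at 2 hours 5 were higher and 4 lower (13.0%, against 8.58%). Their median log2(FC) was 0.14, 0.036, 0.083 and 0.040 in the same order of groups.

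Of the Wnt ligands, 10 of 14 were tested, of which TGF-β upregulated 4 and downregulated 2 at 6 hours and upregulated 7 and downregulated 2 at 2 hours, and eATP upregulated 2 at 6 hours and 1 at 2 hours. WNT9A averaged 2.68 FPKM with TGF-β at 6 hours (log2(FC) 1.87), 2.83 FPKM with TGF-β at 2 hours (1.90), 1.46 FPKM with eATP at 6 hours (0.94) and 1.16 FPKM with eATP at 2 hours (0.61), against 0.773 FPKM in control, and was called in all 4 (edgeR adjusted p up to 0.00545). It was the ligand that rose with both inducers at both times. WNT7A averaged 1.10 FPKM with TGF-β at 6 hours, against 0.0402 FPKM in control (log2(FC) 4.80, SE 0.542, edgeR adjusted p = 2.71e-06). At 2 hours of TGF-β it averaged 0.251 FPKM (log2(FC) 2.62, edgeR adjusted p = 0.00145). WNT3 averaged 5.09 FPKM with TGF-β at 2 hours, against 2.36 FPKM in control (log2(FC) 1.14, edgeR adjusted p = 1.79e-06), and 3.65 FPKM at 6 hours (log2(FC) 0.71, edgeR adjusted p = 0.000218). WNT7B, the highest of the 4 per length, averaged 38.9 FPKM with eATP at 6 hours, against 29.8 FPKM in control (log2(FC) 0.41, edgeR adjusted p = 0.000405). With TGF-β, WNT7B moved the other way, to 18.6 FPKM at 6 hours (log2(FC) -0.61, edgeR adjusted p = 3.98e-07) and 23.1 FPKM at 2 hours (log2(FC) -0.34, edgeR adjusted p = 0.000462).

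Of the receptors and co-receptors, 13 of 15 were tested, of which TGF-β upregulated 2 and downregulated 1 at 6 hours and upregulated 2 at 2 hours. With eATP, edgeR and DESeq2 each called 0 of them at 6 hours, where 3 had an unadjusted edgeR p under 0.05, and 1 was upregulated and 2 were downregulated at 2 hours. LGR6, the third R-spondin receptor of its family, was the member of this list that rose in 3 groups: to 1.68 FPKM with TGF-β at 6 hours (log2(FC) 0.52), 2.53 FPKM with TGF-β at 2 hours (1.06) and 1.76 FPKM with eATP at 2 hours (0.54), against 1.23 FPKM in control (edgeR adjusted p up to 0.000772). LRP5, a co-receptor to which DKK1 binds, fell to 7.58 FPKM with TGF-β at 6 hours, against 12.0 FPKM in control (log2(FC) -0.59, edgeR adjusted p = 0.000397). The Frizzled gene FZD2 fell to 3.46 FPKM with eATP at 2 hours, against 6.44 FPKM in control (log2(FC) -0.87, edgeR adjusted p = 0.000569), while FZD5 rose to 3.92 FPKM with TGF-β at 2 hours, against 3.02 FPKM in control (log2(FC) 0.40, edgeR adjusted p = 0.00161), and to 3.41 FPKM at 6 hours (log2(FC) 0.26, edgeR adjusted p = 0.0316). FZD5 too was lower with eATP at 2 hours, at 2.32 FPKM (log2(FC) -0.36, edgeR adjusted p = 0.00604).

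Among secreted modulators, 8 of 19 were tested, of which TGF-β upregulated 2 and downregulated 1 at 6 hours and as many at 2 hours, and eATP upregulated 1 and downregulated 1 at 6 hours. With eATP at 2 hours edgeR called 0 of them and DESeq2 1, the same number that had an unadjusted edgeR p under 0.05. SFRP1, which binds Wnt ligands outside the cell, moved in opposite directions with the inducers: it averaged 5.78 FPKM with TGF-β at 6 hours (log2(FC) -0.50, edgeR adjusted p = 0.00416), 6.59 FPKM with TGF-β at 2 hours (log2(FC) -0.37, edgeR adjusted p = 0.0388) and 18.0 FPKM with eATP at 6 hours (log2(FC) 1.08, edgeR adjusted p = 1.74e-05), against 8.65 FPKM in control. With eATP at 2 hours SFRP1 averaged 10.8 FPKM and was not called (log2(FC) 0.35, edgeR adjusted p = 0.0734). SFRP4, of the same family, rose to 1.36 FPKM with TGF-β at 2 hours (log2(FC) 0.79, edgeR adjusted p = 0.0027) and fell to 0.492 FPKM with eATP at 6 hours (log2(FC) -0.68, edgeR adjusted p = 0.0304), against 0.801 FPKM in control. RSPO3, an R-spondin and thus a ligand of the LGR receptors, averaged 16.7 FPKM with TGF-β at 6 hours, against 14.5 FPKM in control (log2(FC) 0.28, edgeR adjusted p = 0.0126). WLS, which carries Wnt ligands to the cell surface and is on a list of 2 tested genes, fell with TGF-β at 6 hours (log2(FC) -0.48, edgeR adjusted p = 0.0091).

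All 16 listed genes of Dishevelled and the destruction complex were tested, and 1 to 4 of them were called in a comparison with control. DVL1, a Dishevelled gene, averaged 16.5 FPKM with TGF-β at 6 hours (log2(FC) 1.19, edgeR adjusted p = 5.01e-09), 10.4 FPKM with eATP at 6 hours (log2(FC) 0.48, edgeR adjusted p = 0.00228) and 6.18 FPKM with eATP at 2 hours (log2(FC) -0.28, edgeR adjusted p = 0.042), against 7.62 FPKM in control. AMER1, which binds APC and axin, fell with TGF-β at 6 hours (log2(FC) -0.86, edgeR adjusted p = 0.0106) and at 2 hours (log2(FC) -1.25, edgeR adjusted p = 0.000744). BTRC, the ubiquitin ligase subunit that recognises β-catenin, fell with TGF-β at 2 hours (log2(FC) -0.68, edgeR adjusted p = 0.0231), and the kinase gene CSNK1D rose in that group (log2(FC) 0.44, edgeR adjusted p = 3.53e-05) and with eATP at 2 hours (log2(FC) 0.23, edgeR adjusted p = 0.0178).

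All 12 listed nuclear factors were tested, of which TGF-β upregulated 3 and downregulated 1 at 6 hours and upregulated 2 and downregulated 1 at 2 hours. With eATP at 6 hours edgeR called 0 of them and DESeq2 1, while 2 had an unadjusted edgeR p under 0.05, and 1 was upregulated at 2 hours. TCF7L1, a relative of TCF7L2 known mostly as a repressor, rose to 1.05 FPKM with TGF-β at 6 hours, against 0.409 FPKM in control (log2(FC) 1.43, edgeR adjusted p = 3.71e-05), and the co-repressor TLE4 fell to 0.934 FPKM, against 2.38 FPKM (log2(FC) -1.26, edgeR adjusted p = 2.18e-06). TCF7L1 was also higher with TGF-β at 2 hours, at 0.954 FPKM (log2(FC) 1.245, edgeR adjusted p = 0.000269). CTNNB1, the gene of β-catenin, averaged 25.9 FPKM with TGF-β at 6 hours (log2(FC) 0.67, edgeR adjusted p = 9.96e-06) and 20.5 FPKM with TGF-β at 2 hours (log2(FC) 0.28, edgeR adjusted p = 0.0311), against 17.1 FPKM in control. Its co-activator BCL9 fell with TGF-β at 2 hours (log2(FC) -0.49, edgeR adjusted p = 0.0365), and the co-repressor TLE1 rose with eATP at 2 hours (log2(FC) 0.34, edgeR adjusted p = 0.00209).

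Of 10 further genes known as β-catenin targets in some tissue, 8 were tested, of which TGF-β upregulated 3 and downregulated 1 at 6 hours and upregulated 2 and downregulated 1 at 2 hours, and eATP upregulated 2 at 6 hours and upregulated 1 and downregulated 1 at 2 hours. BAMBI, a decoy receptor that restrains TGF-β signalling and is a known TGF-β target too, averaged 35.9 FPKM with TGF-β at 6 hours (log2(FC) 0.79, edgeR adjusted p = 6.79e-07), 61.8 FPKM with TGF-β at 2 hours (log2(FC) 1.52, edgeR adjusted p = 2.71e-10) and 13.0 FPKM with eATP at 2 hours (log2(FC) -0.74, edgeR adjusted p = 3.91e-06), against 21.9 FPKM in control. The cyclin gene CCND1 rose with TGF-β at 6 hours (log2(FC) 0.49, edgeR adjusted p = 9.27e-06) and with eATP at 6 hours (log2(FC) 0.65, edgeR adjusted p = 3.51e-06), and the protease gene MMP7 rose with eATP at 6 hours (log2(FC) 0.62, edgeR adjusted p = 0.000154) and at 2 hours (log2(FC) 0.45, edgeR adjusted p = 0.0011). The nuclear receptor gene PPARD rose with TGF-β at 6 hours (log2(FC) 1.03, edgeR adjusted p = 2.15e-06) and at 2 hours (log2(FC) 0.44, edgeR adjusted p = 0.0131). The adhesion receptor gene CD44 fell with TGF-β at 2 hours (log2(FC) -0.68, edgeR adjusted p = 0.000613) and at 6 hours (log2(FC) -0.56, edgeR adjusted p = 0.00233).

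The genes whose pattern was most like that of RNF43 were sought among the 11562 genes that averaged 1 FPKM or more, by the root mean square difference of the 5 group means of log2(CPM), each centred on the gene's own mean. The nearest was FOS, an immediate early transcription factor, at a difference of 0.35. Then came SMIM11B at 0.664, PKDCC at 0.67, AXIN2 at 0.684 and SNORA67 at 0.687. SOX2, a transcription factor of stem and lung epithelial cells, followed at 0.736, and ZNRF3 ranked 73rd at 1.01. SMIM11B has a near-identical copy in the genome and SNORA67 is a small nucleolar RNA, so the levels of both are uncertain in a library of this kind. The measure rests on 5 means from the same libraries for every gene and carries no p.

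**Figure D5:**
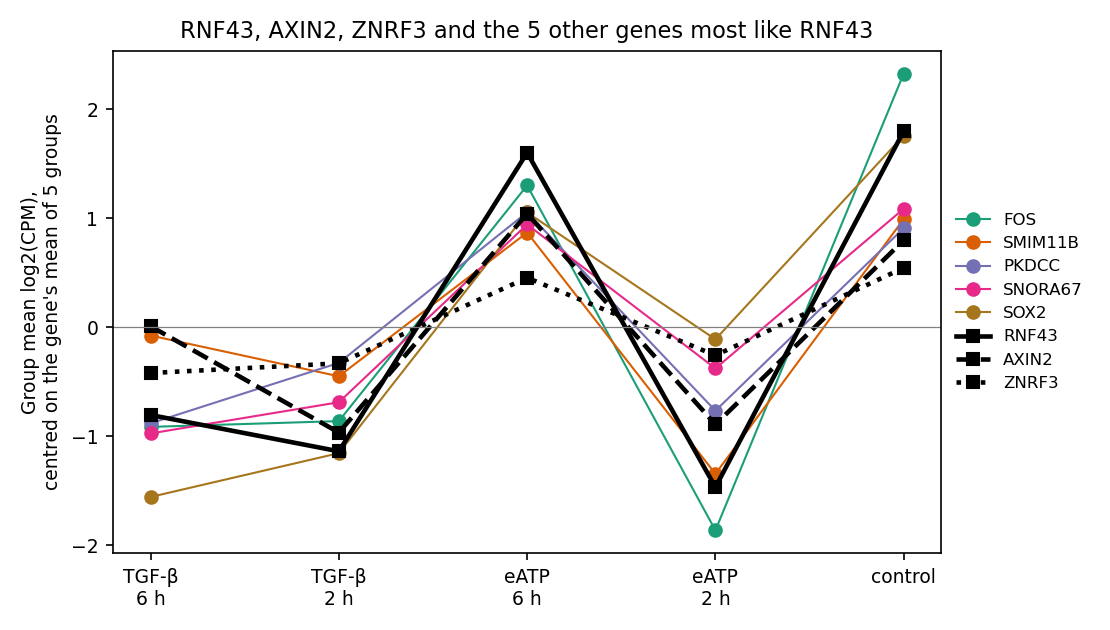
Group mean of log2(CPM), centred on each gene's mean over the 5 groups (vertical axis), for RNF43, AXIN2 and ZNRF3 (black squares) and the 5 other genes nearest to RNF43 (coloured circles). RNF43 lies at -0.803, -1.14, 1.60, -1.47 and 1.80 from left to right, FOS follows it closely, and ZNRF3 is high and low in the same groups over a narrower span.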

How the data were processed

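The authors deposited a whole-number read count for each gene and library, not normalized, and the authors also deposited an FPKM value, normalized for transcript length and library reads. HISAT2, StringTie and edgeR are named in the processing notes of the submitters. Their versions, the build and the counting settings are not given in the sources used. Gene positions were taken from GENCODE 29 (GRCh38) by gene ID.

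Genes had to reach 0.1 FPKM in 4 of 20 libraries, which kept 20094 of 58825 (25387 were at 0 in every library). Counts were TMM normalized and fitted in edgeR 4.0.16 (R 4.3.3) with 1 mean per group, and contrasts were tested by the quasi-likelihood F-test, two-sided, with Benjamini-Hochberg adjustment over all genes. A gene was called at an adjusted p under 0.05. The SE of a log2(FC) was its size divided by the square root of F. RNF43 was left out of the tests that use its values at 2 hours. Alternatives were other filters and scalings, DESeq2 1.42.0, limma 3.58.1 on log2(FPKM + 0.1) and log2(FPKM + 1), a block for the replicate number, a fit restricted to the compared groups, and each library left out.

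The 10 members and the pathway lists were chosen with earlier results of these data known. The pathway genes named were, per list and comparison with control, up to 2 called genes of largest change that averaged 1 FPKM or more in the higher group, and the nearest genes to RNF43 were the 5 outside the members. The labels number 4 libraries in each group, and all were used, although the study's text gives 3 replicates per condition. No 2 libraries of a group agreed within sampling noise. With 56187614 to 75050437 counts per library, members under 0.1 FPKM in every library were not tested.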

Additional observations from a re-analysis of the deposited data

Results flagged for a closer look

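In 6 of 40 sets of 4 libraries (8 genes in 5 groups), 1 library lay far from the other 3. For normally distributed values, chance alone gives about 1 in 20, or 2 of 40. The 8 genes share the same libraries, so the sets are not independent, and 6 against 2 was not tested. For LGR4, replicate 2 of eATP at 2 hours was at 6.55 FPKM and the others at 24.6 to 25.9 FPKM, and control replicate 3 was at 5.66 FPKM and the others at 33.5 to 33.8 FPKM. For AXIN2, replicate 1 of eATP at 2 hours was at 0.856 FPKM and the others at 0.617 to 0.646 FPKM, and control replicate 3 was at 1.76 FPKM and the others at 2.39 to 2.51 FPKM. For DKK1, replicate 4 of eATP at 6 hours was at 294 FPKM and the others at 410 to 422 FPKM. For NKD1, replicate 1 of TGF-β at 2 hours was at 0.248 FPKM and the others at 0.440 to 0.465 FPKM. Control replicate 3 thus appeared for both LGR4 and AXIN2.

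The change from 2 to 6 hours differed between the inducers in the edgeR test for 3 genes, as TGF-β minus eATP on the log2 scale: AXIN2 by -0.98, ZNRF3 by -0.815 and DKK1 by 0.73.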

How the results depend on the processing

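The 66 tested results of the members had 1169 values under the alternatives. Of these, 1128 kept their side of the threshold, 34 lost the call and 7 gained one. The sign changed for 0 values with a call before or after, and for 31 values of 11 results without a call, all at or under 0.451 in size on the log2 scale before. The count of members called for TGF-β at 6 against 2 hours was 1, and it was 2 with the DESeq2 test, with limma on log2(FPKM + 0.1) and with limma on log2(FPKM + 1), where TCF7L2 was added, and 0 in a fit of the compared groups alone, with a range of 1 to 2 when a library was left out. For eATP at 6 hours against control it was 2, and 1 in a fit of the compared groups alone. For the difference between the time courses it was 3, with a range of 1 to 3 when a library was left out. The cause of these changes was not tested. The replicate numbers gave no strong pairing, since same-numbered libraries deviated together with r of -0.105 to 0.0888 and 0 pairs were over 0.1. By comparison of 2 groups, 0 to 3 of 4 libraries matched best with their own number. Whether the numbers stand for a weak pairing was not tested. With the replicate number as a block, the count for the time courses was 1 (ZNRF3, adjusted p = 0.0722, and AXIN2, adjusted p = 0.0512, were not called), and the block changed no other count. A filter of 1 FPKM removed NKD1 and lowered the counts in which it was called by 1. On log2(FPKM + 1), which shrinks low levels, RNF43 gave -2.14 with TGF-β at 2 hours, -2.29 with eATP at 2 hours, 2.10 for eATP at 6 against 2 hours and -1.95 for the time courses, AXIN2 gave -0.97 with TGF-β at 2 hours and -0.95 with eATP at 2 hours, and NKD1 gave 0.31 with TGF-β at either time. Counts of LGR5 and LEF1 were too few for a direction.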
